A study of Homo sapiens with 6 samples.

Results

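Histone genes were taken from RNA-seq counts of RKO, an established human colon carcinoma cell line, as every gene symbol beginning with H1-, H2AC, H2BC, H3C, H4C, H2AX, H2AZ, MACROH2A or H3-3, pseudogenes left out. This gave 77 of the 28278 symbols in the count tables. Of the 76 described, 66 were clustered replication-dependent genes, 7 were polyadenylated variant genes, 1 was H2AX and 2 (H1-7 and H1-8, germ cell linker histones) belonged to neither class. The divergent transcript H2AZ1-DT was also left out, since it is not a histone gene. The study sequenced polyadenylated RNA from RKO cells in 2 groups, 3 wild-type libraries and 3 libraries from a knockout of GSK3B. GSK3B encodes a serine/threonine kinase with many substrates. The labels name no treatment or time. How the gene was disrupted, whether the knockout is 1 clone and whether replicates were separate cultures is not stated in them, so p-values measure only how these samples spread, and that spread may be technical.

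Histones package DNA into nucleosomes. The replication-dependent genes lie in clusters, are transcribed mainly in S phase, and make mRNAs that end in a conserved stem-loop bound by SLBP instead of a poly(A) tail. Variant histones are made throughout the cell cycle from ordinary polyadenylated mRNAs, and they replace the canonical proteins at particular places in chromatin. Because libraries here came from polyadenylated RNA, the counts of clustered genes cover the part of their RNA that was carried into such libraries and are not a measure of their full mRNA level.

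The stem-loop was searched for in GENCODE 29 transcripts, within 100 bases after the stop codon, on the transcript strand, as the 16-base histone stem-loop with a stem of 6 base pairs (G with T allowed) around a loop of 4 bases. It is shown because, without any expression value, it marked only clustered genes and H2AX among the members, though not every clustered gene. The core is in capitals.

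H2AC18: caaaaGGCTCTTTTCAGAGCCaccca
H2BC21: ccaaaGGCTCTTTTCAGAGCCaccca
H2BC5: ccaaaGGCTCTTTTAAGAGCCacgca
H3C6: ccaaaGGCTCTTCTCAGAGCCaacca
H4C11: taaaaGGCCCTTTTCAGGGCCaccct
H4C14: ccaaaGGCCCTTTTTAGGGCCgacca
H2AX: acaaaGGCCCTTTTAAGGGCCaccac

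A match was found in 28 of 66 clustered genes, in H2AX and in 0 of the 7 variant genes, all 7 of which have 100 bases or more after the stop codon. Of the 38 clustered genes without a match, 34 have models with fewer than 40 bases after the stop and 4 have a longer model that does not hold these letters. The core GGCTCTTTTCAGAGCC was the most common, in 15 of the 28. Among all 18789 genes with a window of 100 bases, 28 (0.149%) held the motif. The 3 of them that were not members, HIST3H2A, HIST3H2BB and HIST4H4, are histone genes too. They appear below under the symbols H2AW, H2BU1 and H4-16, which the naming rule does not take. Of the 28 clustered genes with a match, 25 had enough counts to be tested, against 13 of the 38 without. GENCODE models of 19 clustered genes reach 200 bases or more past the loop.

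Promoters in the RefSeq table (GRCh38.p14, 300 bases around each gene start) matched 61 clustered and 7 variant genes. They were searched on both strands for the CCAAT box, for TATAAA, for the octamer ATTTGCAT known from H2B promoters and for the H1 box AAACACA, none of which contains another. CCAAT was in 85.2% of clustered windows and 35.7% of all RefSeq windows, and TATAAA in 67.2% and 12%. By family, CCAAT was in 6 of 6 H1, 15 of 15 H2A, 17 of 17 H2B, 11 of 11 H3 and 3 of 12 H4 windows. The octamer was in 14 of 17 H2B and 11 of 15 H2A windows (1.8% of all), and H2A and H2B genes often form divergent pairs that share a promoter. The H1 box was in 6 of 6 clustered H1 windows (5.76% of all). A match is a description of the letters and not a bound site. The windows of H2AZ1 and H3-3B, the 2 members that rose, are printed with those of H2BC21 and H1-2, a clustered H2B and a clustered H1 gene with many counts, and capitals mark the motifs on either strand.

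H2AZ1 (chr4:99950226-99950525, minus strand): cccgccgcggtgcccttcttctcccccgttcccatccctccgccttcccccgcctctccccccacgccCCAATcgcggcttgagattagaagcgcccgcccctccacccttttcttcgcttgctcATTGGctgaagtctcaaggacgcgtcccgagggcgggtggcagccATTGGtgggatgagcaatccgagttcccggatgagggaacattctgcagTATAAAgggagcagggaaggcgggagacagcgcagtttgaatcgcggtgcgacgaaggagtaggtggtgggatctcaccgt
H3-3B (chr17:75779730-75780029, minus strand): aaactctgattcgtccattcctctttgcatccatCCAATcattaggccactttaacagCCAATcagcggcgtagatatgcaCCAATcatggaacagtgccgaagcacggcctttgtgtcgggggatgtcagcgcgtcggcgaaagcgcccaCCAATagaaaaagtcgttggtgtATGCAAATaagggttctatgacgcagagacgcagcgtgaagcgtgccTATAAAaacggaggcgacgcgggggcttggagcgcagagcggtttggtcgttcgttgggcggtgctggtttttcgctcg
H2BC21 (chr1:149886633-149886932, minus strand): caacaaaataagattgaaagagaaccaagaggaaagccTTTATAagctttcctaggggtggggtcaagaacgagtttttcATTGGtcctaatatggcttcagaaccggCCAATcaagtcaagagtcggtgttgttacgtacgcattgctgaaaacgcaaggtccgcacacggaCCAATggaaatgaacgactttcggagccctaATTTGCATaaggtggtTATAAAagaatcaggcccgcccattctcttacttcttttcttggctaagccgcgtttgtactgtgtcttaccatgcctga
H1-2 (chr6:26056421-26056720, minus strand): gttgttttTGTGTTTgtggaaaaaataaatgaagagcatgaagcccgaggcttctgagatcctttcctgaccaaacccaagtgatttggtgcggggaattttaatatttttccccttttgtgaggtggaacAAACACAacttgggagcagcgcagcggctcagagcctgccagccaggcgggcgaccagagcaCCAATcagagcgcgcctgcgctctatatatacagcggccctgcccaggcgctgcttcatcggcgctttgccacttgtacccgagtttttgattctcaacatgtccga

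H2AZ1 held 3 CCAAT boxes and 1 TATAAA. H3-3B held 4 CCAAT boxes, 1 TATAAA and 1 octamer, a motif found in 1 of 7 variant windows. CCAAT was in 4 and TATAAA in 3 of the 7 variant windows, so neither was limited to the genes that rose. H2AX held 4 CCAAT boxes and 1 TATAAA.

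Each library held between 32379369 and 33558362 counts. Levels are given as CPM, the usual per-library scale for counts, with TMM scaling. GSK3B itself fell from 96.0 ± 4.05 to 46.8 ± 0.789 CPM in the knockout (SD, n = 3; edgeR, adjusted p = 1.88e-12) and was present in all 6 libraries. Summed over 10 colon epithelial markers the level was 136 to 143 CPM in wild-type cells and 139 to 144 CPM in knockout libraries, led by KRT18, with CDX1, LGALS4 and CDH1 listed at 0, and 1 of the 10 fell. Housekeeping genes such as FBL and ZYX were listed at 0 as well, so a 0 was not read as absence of expression. Of 8 fibroblast markers 2 fell. Of all tested genes 7.18% fell, the share to set beside both marker lists. The fibroblast markers summed to 2.37 to 6.16 CPM in wild-type cells and 1.12 to 1.23 CPM in knockout libraries. All of them were low, with PDGFRB the highest at a mean of 1.32 CPM. The 7 leukocyte markers summed to 740 to 763 CPM and 754 to 759 CPM, nearly all of it CD68, with PTPRC, CD3E and MS4A1 listed at 0. The 4 endothelial markers, CDH5 among them at 0, summed to 0.0608 to 0.24 CPM and 0.124 to 0.21 CPM. The part of other cells in the results was not tested.

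Among the variant histone genes described, H2AZ1, which encodes the H2A.Z found at promoters, and H3-3B, which encodes the replacement histone H3.3, rose to 115% and 110% of wild type. In edgeR's quasi-likelihood test with Benjamini-Hochberg adjustment over 14409 tested genes, 2 of these 7 variant genes rose, 0 fell and 5 did not pass at an adjusted p under 0.05. Of all tested genes 6.36% rose and 7.18% fell, 13.5% in all: 917 against 1034 genes, or 649 against 1229 when scaled by library size alone. DESeq2 and limma-voom also called 2 higher and 0 lower, while H1-10 and MACROH2A2, 2 in number, were lower by edgeR before adjustment (p under 0.05). By that measure 2028 of all 14409 tested genes were lower. In bulk RNA, fewer cells that express a gene and less of its RNA per cell cannot be told apart.

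**Figure D1:**
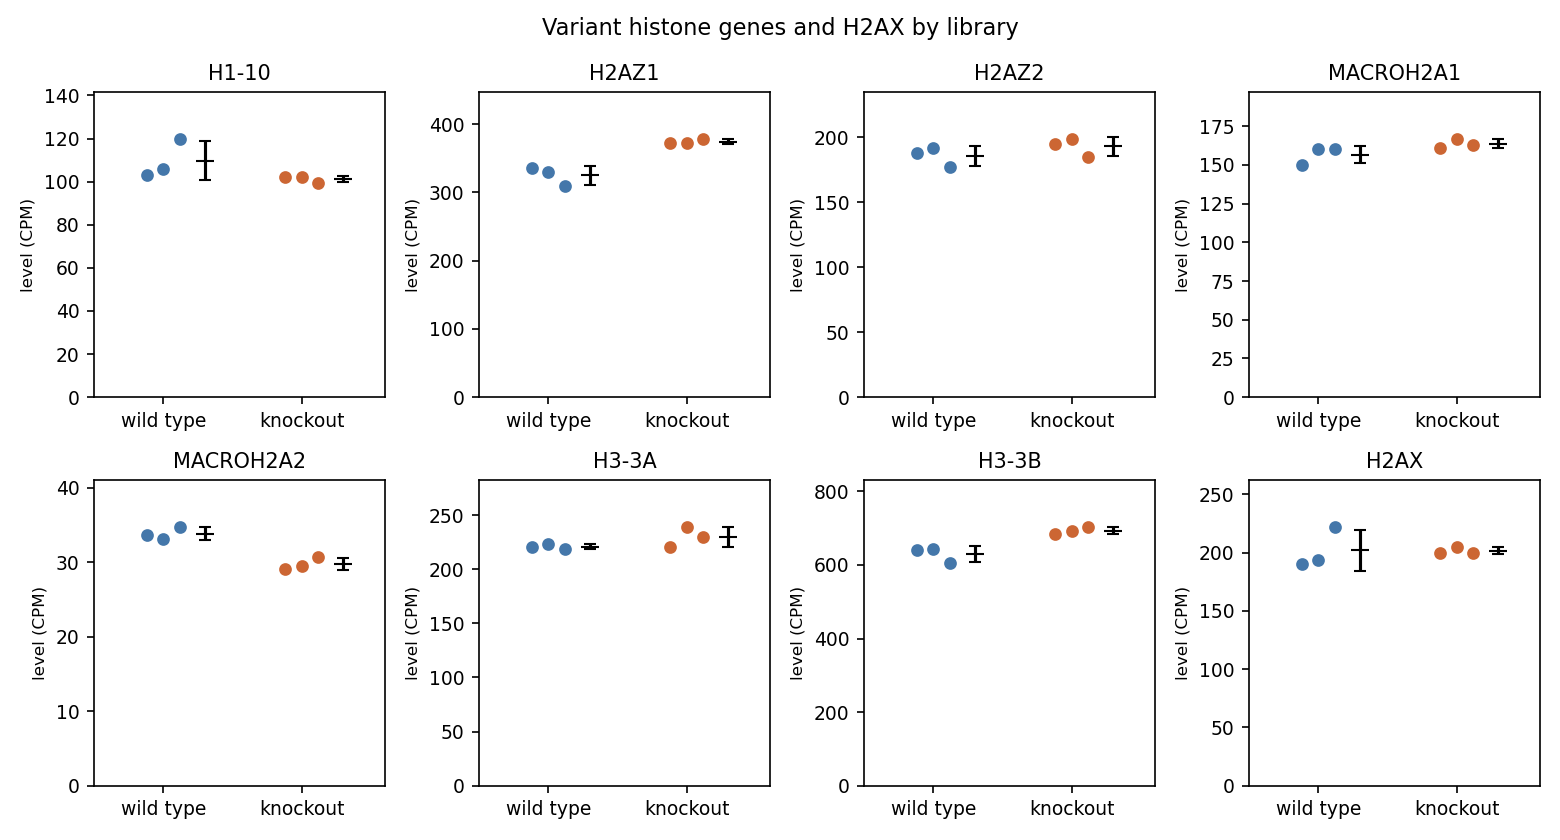
Level of 7 variant histone genes and H2AX in CPM (vertical axes, each from 0) in the 3 wild-type (blue) and 3 knockout (orange) libraries, 1 point a library, with black bars for the mean and SD. H2AZ1 was at 309 to 336 CPM in wild-type cells and 372 to 379 CPM in knockout libraries, and H3-3B at 606 to 642 and 684 to 703 CPM.

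Values are listed by replicate number. H1-10, a variant linker histone, had 103, 106 and 120 CPM in wild-type cells and 102, 102 and 99.4 CPM in knockout libraries. The groups did not overlap, but wild-type replicate 3 stood above the rest, and H1-10 did not pass (log2 fold change -0.12 ± 0.05 SE, n = 3 per group; edgeR, adjusted p = 0.145). Without wild-type replicate 1 it did, at -0.16 (edgeR, adjusted p = 0.0249), and with a correction for the GC content of transcripts its adjusted p was 0.986. Exons of H1-10 overlap the antisense gene H1FX-AS1, and without a stated strand setting their reads cannot be told apart.

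H2AZ1 had 336, 330 and 309 CPM in wild-type cells and 372, 373 and 379 CPM in knockout libraries. Every knockout library was above every wild-type library (log2 fold change 0.21 ± 0.04 SE; edgeR, adjusted p = 4.50e-04). The gene is on the minus strand of chromosome 4, at 99948086 to 99950388 (GENCODE 29, hg38), and its exons overlap AC097460.1 on the opposite strand. H2AZ2, which encodes a near-identical H2A.Z protein, had 188, 192 and 177 CPM in wild-type cells and 195, 199 and 185 CPM in knockout libraries, which overlap, and did not pass (0.06 ± 0.04 SE; edgeR, adjusted p = 0.377). Per kilobase of the longest annotated transcript, H2AZ1 stood at 173 and 199 CPM per kb in wild type and knockout, and H2AZ2 at 48.7 and 50.8. The H2AZ1 share of the pair's CPM was 63.7% ± 0.434 in wild-type and 66.0% ± 1.12 in knockout libraries (SD, n = 3), with no overlap.

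H3-3B had 641, 642 and 606 CPM in wild-type cells and 684, 691 and 703 CPM in knockout libraries. The groups did not overlap, with wild-type replicate 3 the lowest (log2 fold change 0.14 ± 0.03 SE; edgeR, adjusted p = 0.00683). Without knockout replicate 3 the difference was 0.13 and did not pass (edgeR, adjusted p = 0.0572). H3-3B is on the minus strand of chromosome 17, at 75776434 to 75785893, and was the variant with the highest level per kilobase, 226 CPM per kb in wild type. Its exons overlap those of UNK on the opposite strand, so their reads may have been mixed. H3-3A, which encodes the same protein from chromosome 1, had 221, 223 and 219 CPM in wild-type cells and 221, 239 and 230 CPM in knockout libraries, which overlap at knockout replicate 1. It did not pass (0.06 ± 0.04 SE; edgeR, adjusted p = 0.351), and stood at -0.01 with the GC correction.

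The macroH2A genes encode large H2A variants with an added macro domain, known from silent chromatin. MACROH2A2 had 33.7, 33.1 and 34.7 CPM in wild-type cells and 29.1, 29.5 and 30.7 CPM in knockout libraries. The groups did not overlap, but the gene narrowly missed the threshold (log2 fold change -0.18 ± 0.06 SE; edgeR, adjusted p = 0.0508). It passed with the GC correction (-0.16; edgeR, adjusted p = 0.0354), with scaling by library size alone, with a filter of 1 CPM and with the replicate number as a block. MACROH2A1 had 150, 160 and 160 CPM in wild-type cells and 161, 167 and 163 CPM in knockout libraries, with no overlap by a narrow margin, and did not pass (0.07 ± 0.04 SE; edgeR, adjusted p = 0.318). The MACROH2A2 share of the pair's CPM was 17.8% ± 0.621 in wild-type and 15.4% ± 0.379 in knockout libraries (SD, n = 3), with no overlap. Exons of both genes overlap genes on the opposite strand.

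H2AX, the variant phosphorylated at DNA breaks, makes both stem-loop and polyadenylated mRNA. It had 190, 194 and 222 CPM in wild-type cells and 200, 205 and 200 CPM in knockout libraries. Wild-type replicate 3 was the highest of all 6 and the groups overlapped, at 99.9% of wild type (± 0.05 SE on the log2 scale; edgeR, adjusted p = 0.984). With the GC correction H2AX passed, higher in the knockout by 0.10 (edgeR, adjusted p = 0.00807), when 9.61% of all genes rose and 9.47% fell. Its transcript is 66.4% G and C. Without wild-type replicate 3 it stood at 0.07 and did not pass (edgeR, adjusted p = 0.134).

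Clustered replication-dependent genes passed in neither direction. Of 66, 11 were listed at 0 in all 6 libraries, 17 more had too few counts to be tested (at most 0.356 CPM on average) and 38 were tested, of which 0 rose and 0 fell by edgeR, DESeq2 or limma-voom, where edgeR called 6.36% of all tested genes higher and 7.18% lower. DESeq2 gave no adjusted p for 9 of them. At an unadjusted p under 0.05 edgeR had 2 higher, H2BC7 and H2BC12, and 1 lower, H2BC21. Of all 14409 tested genes 2006 were higher and 2028 lower at that p. The median log2 fold change of the 38 was -0.12, with 27 below and 11 above 0, beside 0.00 over all tested genes, and it was -0.08 with the GC correction. Counting each near-identical pair once, a choice made after seeing the data, the median was -0.09, with 23 below and 11 above 0. In 8 of the 38 the groups did not overlap, where 31.3% of all tested genes did not overlap.

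**Figure D2:**
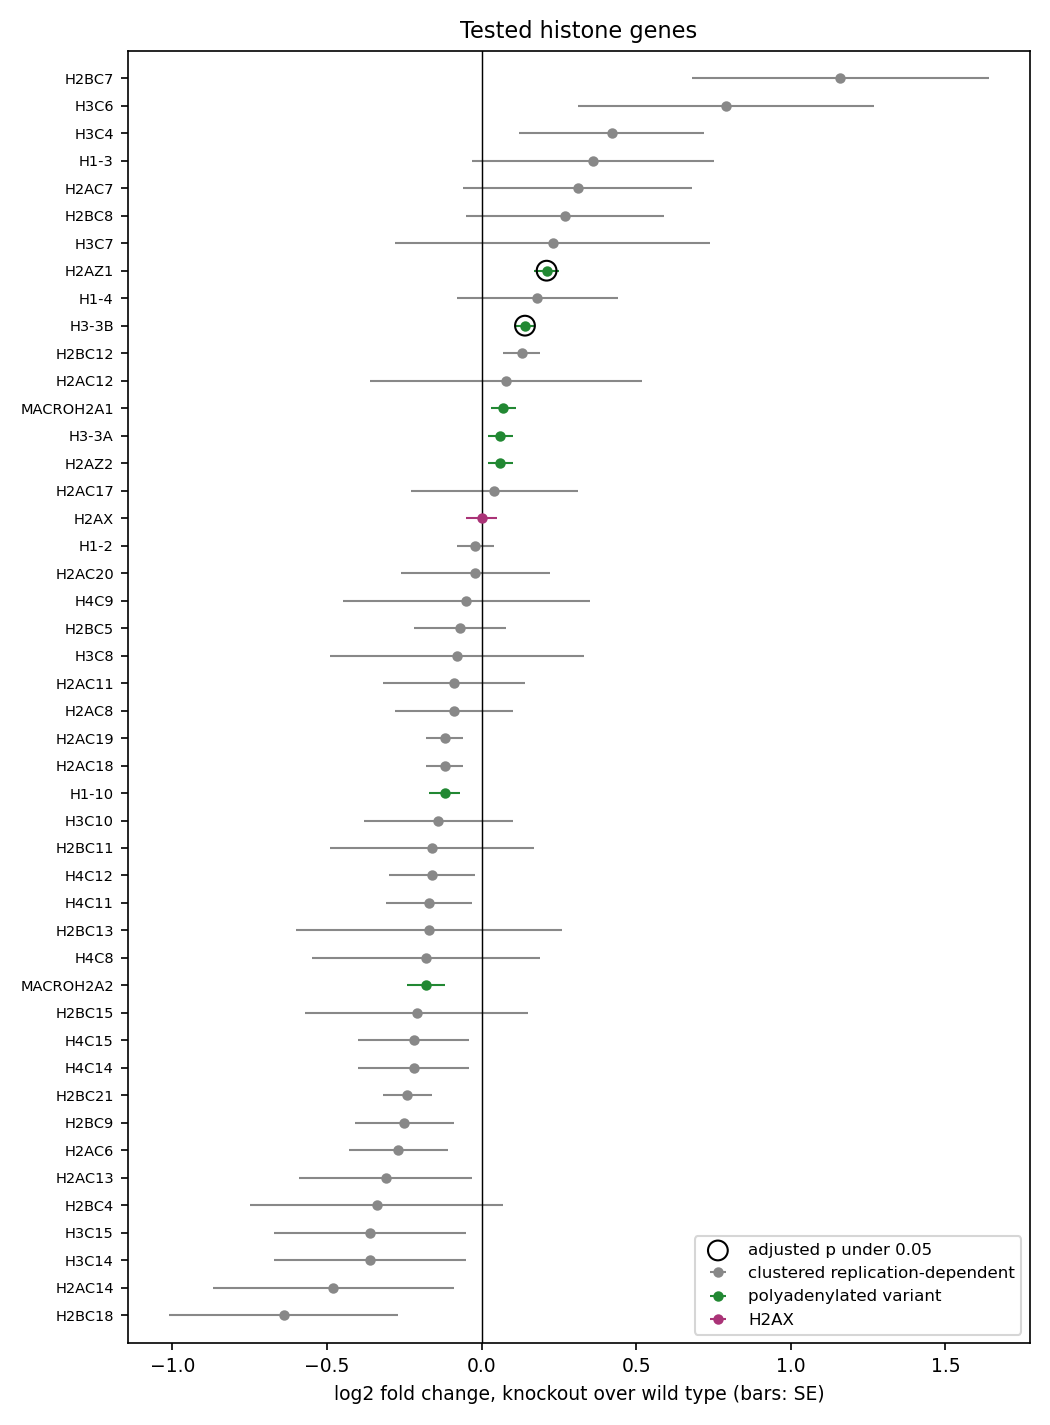
Log2 fold change of 46 tested histone genes, knockout over wild type (horizontal axis), with bars for the SE, in order of size. Rings mark the 2 genes that passed, both polyadenylated variants (green): H3-3B at 0.14 and H2AZ1 at 0.21.

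Precision differed widely between clustered genes. The 8 with a mean of 5 CPM or more had SEs of 0.06 to 0.15 and the 30 tested genes below it had SEs of 0.16 to 0.51. In 25 of those 30 the SE was larger than the 0.21 by which H2AZ1 rose. H2BC21 missed the threshold at -0.24 with an SE of 0.08. A change of 0.21 was thus not detectable at this depth in any of the 30. Nor was it in H2BC5, H4C11 and H4C12, with SEs of 0.14 to 0.15. H2BC7, picked after its values were seen as the one farthest from 0, had 5, 9 and 6 counts in wild-type and 20, 13 and 12 in knockout libraries (1.16 ± 0.48 SE; edgeR, adjusted p = 0.113).

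**Figure D3:**
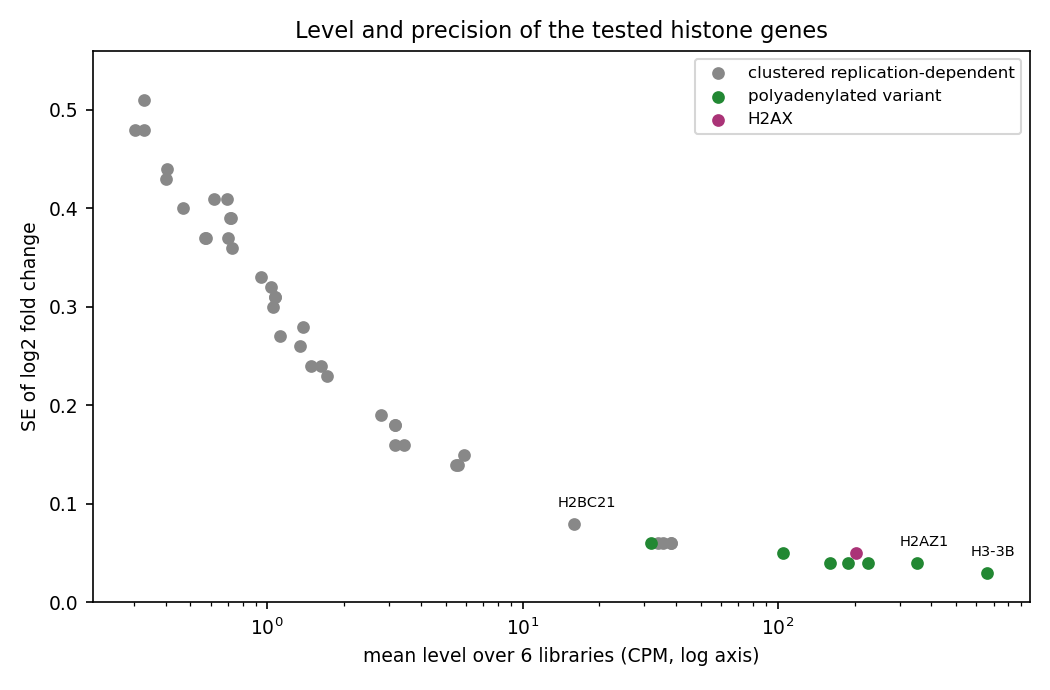
SE of the log2 fold change (vertical axis) against the mean level over 6 libraries in CPM (horizontal log axis) for 46 tested histone genes, clustered genes in grey, variants in green and H2AX in purple. SEs ran from 0.03 in the variants to 0.51 in clustered genes under 1 CPM.

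Among clustered linker histones, H1-2 carried most of the counts, with 33.3, 36.0 and 37.6 CPM in wild-type cells and 33.4, 37.1 and 35.2 CPM in knockout libraries. The knockout values lay inside the wild-type range, at 98.9% of wild type (± 0.06 SE on the log2 scale; edgeR, adjusted p = 0.900). H1-4 and H1-3 were low, at 1.22 to 1.28 and 0.458 to 0.729 CPM in wild-type cells and 1.17 to 1.71 and 0.365 to 1.27 CPM in knockout libraries, and both overlapped between groups. H1-5 and H1-6 were listed at 0, and H1-1 had 2 counts in 1 library. The 6 genes summed to 37.5 ± 2.13 CPM in wild-type cells and 37.5 ± 2.51 CPM in knockout libraries (SD, n = 3).

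H2A genes were led by H2AC18 and H2AC19, near-identical copies on chromosome 1 whose counts were equal in 5 of 6 libraries, so that reads of one could not be told from the other. H2AC18 had 39.4, 40.7 and 39.4 CPM in wild-type cells and 34.7, 37.3 and 38.2 CPM in knockout libraries. The groups did not overlap, and knockout replicate 1 was the lowest (log2 fold change -0.12 ± 0.06 SE; edgeR, adjusted p = 0.206). H2AC6 had 3.01, 3.58 and 3.78 CPM in wild-type cells and 2.92, 2.92 and 2.76 CPM in knockout libraries, also without overlap (-0.27 ± 0.16 SE; edgeR, adjusted p = 0.304). The 16 H2A genes summed to 94.0 ± 2.74 CPM in wild-type cells and 86.6 ± 3.78 CPM in knockout libraries (SD, n = 3). Their sums did not overlap either, but they rest largely on the H2AC18 and H2AC19 reads, which count for both copies.

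H2B genes had fold changes of both signs, and none passed. H2BC21, on chromosome 1 from 149884459 to 149886652, had 17.0, 17.6 and 17.0 CPM in wild-type cells and 13.4, 15.8 and 14.5 CPM in knockout libraries. The groups did not overlap and the gene missed the threshold (log2 fold change -0.24 ± 0.08 SE; edgeR, adjusted p = 0.0562). It passed with the GC correction (edgeR, adjusted p = 0.0314), with no filter, with a filter of 1 CPM and with scaling by library size alone. H2BC12, on chromosome 6, had 32.3 ± 0.345 CPM in wild-type cells (SD, n = 3) and 33.5, 35.2 and 37.3 CPM in knockout libraries, with every knockout library above every wild-type one (0.13 ± 0.06 SE; edgeR, adjusted p = 0.174). With the GC correction it was at 0.20 and passed (edgeR, adjusted p = 0.0108). That correction used a coding-only GENCODE model of H2BC12, 381 bases long and 61.2% G and C, while RefSeq gives the gene a span of 8566 bases. Of the 38 tested clustered genes 11 have models with fewer than 40 bases after the stop codon. H2BC5 had 6.03 ± 0.741 CPM in wild-type cells and 5.74 ± 1.28 CPM in knockout libraries (SD, n = 3), which overlapped. The 17 H2B genes summed to 64.5 ± 0.891 and 64.1 ± 4.18 CPM.

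H3 genes had the lowest counts. H3C10 had 1.56 ± 0.104 CPM in wild-type cells and 1.42 ± 0.152 CPM in knockout libraries, and H3C14 and H3C15, with identical counts, had 1.20 ± 0.308 and 0.940 ± 0.311 CPM (SD, n = 3). All 3 overlapped between groups. The 13 H3 genes summed to 6.72 ± 0.725 CPM in wild-type cells and 6.58 ± 1.12 CPM in knockout libraries, less than a single copy of H2AC18. H4 genes were led by H4C12 and H4C11, with nearly equal counts: H4C12 had 5.47, 6.94 and 5.25 CPM in wild-type cells and 4.48, 5.66 and 5.62 CPM in knockout libraries, which overlap (-0.16 ± 0.14 SE; edgeR, adjusted p = 0.482), and H4C11 stood at -0.17. H4C14 and H4C15, with identical counts, were at -0.22 ± 0.18 SE. The 14 H4 genes summed to 19.8, 22.4 and 19.3 CPM in wild-type cells and 17.9, 18.2 and 17.5 CPM in knockout libraries, with no overlap.

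**Figure D4:**
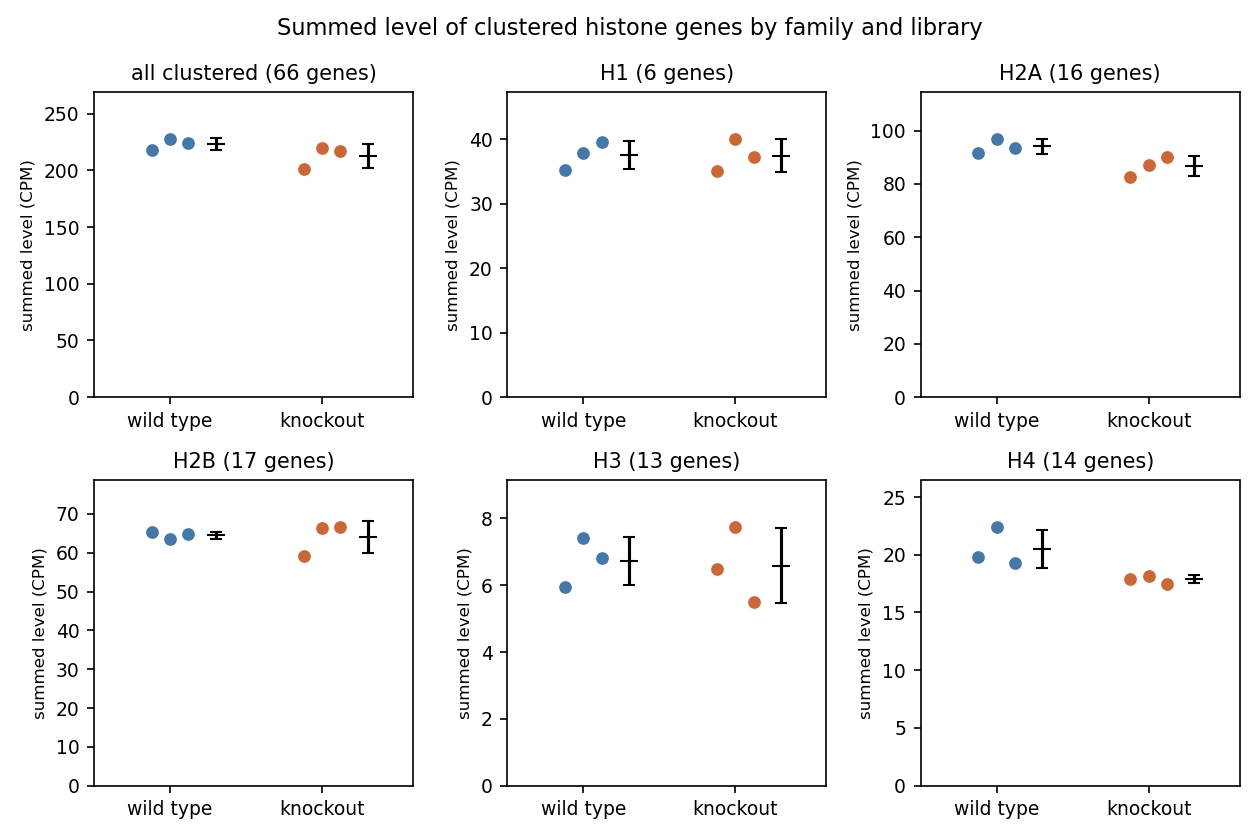
Summed CPM (vertical axes, each from 0) of all clustered histone genes and of each family in the 3 wild-type (blue) and 3 knockout (orange) libraries, 1 point a library, with black bars for the mean and SD. The H2A and H4 sums did not overlap between groups, while the H1, H2B and H3 sums and the total did.

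Set side by side, the summed levels of the classes lay far apart, and no test was made of these sums over chosen genes. The 66 clustered genes summed to 218, 228 and 224 CPM in wild-type cells and 201, 220 and 217 CPM in knockout libraries, which overlap (log2 ratio of means -0.07). The 7 variant genes described, which are not the whole class, summed to 1671, 1686 and 1625 CPM in wild-type cells and 1764, 1801 and 1790 CPM in knockout libraries, which do not (0.10). Clustered genes came to 13.4% ± 0.375 of that sum in wild-type and 11.9% ± 0.429 in knockout libraries (SD, n = 3), with all knockout values lower, a log2 difference of -0.18, or -0.12 with the GC correction. H2AC18, H2AC19, H1-2, H2BC12 and H2BC21 made up 73.8% ± 0.516 of the clustered sum in wild-type and 74.6% ± 0.642 in knockout libraries (SD, n = 3). Counting each near-identical pair once, a choice made after seeing the data, left the clustered log2 ratio at -0.05.

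Ribosomal and small non-coding RNAs were set beside the clustered genes. Ribosomal RNA took 3.47%, 3.47% and 3.45% of counts in wild-type and 3.20%, 3.38% and 3.58% in knockout libraries. Mitochondrial ribosomal RNA was counted in it, so it is not a measure of RNA without a poly(A) tail alone. Its share was lowest in knockout replicate 1, which also had the lowest clustered sum. Knockout replicate 3 had the highest share, and its clustered sum of 217 CPM was below the 218 to 228 CPM of the wild-type libraries. Small nuclear, nucleolar, Cajal body, Y and vault RNAs took 0.444% to 0.452% in the 6 libraries. RN7SL genes, which encode the signal recognition particle RNA, took 0.00421% to 0.00725% in wild-type and 0.0071% to 0.0205% in knockout libraries. The part of carried-over RNA in the clustered values was not tested.

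Of 39 genes of histone mRNA 3′ processing and turnover, 37 were tested, of which 4 rose, 1 fell and 32 did not pass, with a median log2 fold change of 0.09, where 6.36% of all tested genes rose and 7.18% fell. With the GC correction 9 rose and 2 fell, where 9.61% of all tested genes rose and 9.47% fell. NCBP2, a subunit of the cap-binding complex, rose from 119 ± 6.24 to 133 ± 2.01 CPM, LSM1, of the decay-linked LSM ring, from 28.1 ± 1.88 to 32.3 ± 1.26 CPM, and PCF11, a cleavage factor, from 52.0 ± 5.92 to 59.6 ± 3.23 CPM (SD, n = 3). PCF11 overlapped between groups, with wild-type replicate 1 at 58.8 CPM above knockout replicate 1 at 55.9 CPM. TUT1, a terminal uridylyltransferase, fell from 28.4 ± 2.31 to 23.9 ± 1.66 CPM. These calls were narrow (edgeR, adjusted p = 0.0258, 0.0458, 0.0499 and 0.0268). Those of NCBP2 and LSM1 ended without wild-type replicate 2 or any 1 knockout replicate, and that of LSM1 without wild-type replicate 3 too, with adjusted p up to 0.136 and 0.181. That of PCF11 ended on leaving out wild-type replicate 2 or 3, or likewise knockout replicate 2 or 3 (reaching 0.271), and that of TUT1 without wild-type replicate 3, or likewise knockout replicate 2 or 3 (reaching 0.167). With the GC correction NCBP2 and PCF11 did not pass (edgeR, adjusted p = 0.0635 and 0.0527). PCF11 also missed the threshold with DESeq2, without robust estimation, with the 1 CPM filter, with the length correction and with scaling by library size alone (adjusted p = 0.0554, 0.0533, 0.0523, 0.0555 and 0.0805), and LSM1 with the last of these (edgeR, adjusted p = 0.071). The number that rose was 9 without wild-type replicate 1 and 0 without wild-type replicate 2, knockout replicate 2 or knockout replicate 3, and 1 without knockout replicate 1. Of all tested genes 1259, 456, 361, 545 and 457 rose in these fits, in the same order. SLBP, the stem-loop binding protein, and NPAT, the coactivator of clustered histone genes, named for their roles after their values were seen, had 103 ± 3.31 and 31.7 ± 2.45 CPM in wild-type cells and 109 ± 2.24 and 35.2 ± 1.99 CPM in knockout libraries (edgeR, adjusted p = 0.184 and 0.153). With the GC correction SLBP passed and NPAT did not (0.10 and 0.05; edgeR, adjusted p = 0.0403 and 0.582). Without wild-type replicate 1 NPAT passed and SLBP did not (0.21 and 0.07; edgeR, adjusted p = 0.0399 and 0.332).

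Of 39 histone chaperone and deposition genes 6 rose, 0 fell and 33 did not pass, with a median of 0.04, beside 6.36% higher and 7.18% lower over all tested genes. DESeq2 and limma-voom called 0 lower as well. By edgeR 4 were lower at an unadjusted p under 0.05, where 2028 of all 14409 tested genes were. ANP32E, a chaperone that removes H2A.Z, had 145, 153 and 141 CPM in wild-type cells and 165, 174 and 161 CPM in knockout libraries, with no overlap (0.19 ± 0.04 SE; edgeR, adjusted p = 0.00512). It did not pass with the GC correction (0.09; edgeR, adjusted p = 0.0693) or without knockout replicate 2 (edgeR, adjusted p = 0.0727). DEK, which binds histones and DNA, rose by 0.18, and DNAJC9, a J-domain cochaperone of H3 and H4, and NCL, the nucleolar protein nucleolin, each by 0.15. DEK overlapped between groups, with wild-type replicate 1 at 221 CPM above knockout replicate 3 at 216 CPM. The call of DEK ended on leaving out wild-type replicate 2 or 3, or likewise knockout replicate 1 or 2 (adjusted p reaching 0.136), that of DNAJC9 without any 1 library but wild-type replicate 1 (up to 0.172), and that of NCL without wild-type replicate 2, and likewise without knockout replicate 2 (edgeR, adjusted p = 0.0553 and 0.0533). Scaled by library size alone, DEK and DNAJC9 did not pass either (edgeR, adjusted p = 0.0553 and 0.0736). The number that rose was 10 without wild-type replicate 1, 2 without wild-type replicate 2, 3 and 1 without knockout replicates 1 and 2, and 4 without knockout replicate 3. Of all tested genes 1259, 456, 457, 361 and 545 rose in these fits, in the same order. Without wild-type replicate 1, 3 fell, and without wild-type replicate 3, 1 fell, where 1272 and 1024 of all tested genes fell.

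Of 34 genes of S phase, when clustered histone genes are normally expressed, 33 were tested, of which 5 rose, 1 fell and 27 did not pass, with a median of 0.04, against 6.36% and 7.18% of all tested genes that rose and fell. GINS3, a helicase subunit, rose from 37.4 ± 3.41 to 46.4 ± 2.10 CPM and TK1, thymidine kinase, fell from 81.3 ± 3.72 to 68.2 ± 2.07 CPM (SD, n = 3; edgeR, adjusted p = 0.00227 and 0.00132). RFC3, of the clamp loader, and CDC25A, a phosphatase that activates CDK2, rose by 0.21 and 0.17. The call of RFC3 ended on leaving out wild-type replicate 2, or likewise knockout replicate 1 or 3 (adjusted p reaching 0.104) and with the GC correction, and that of CDC25A without wild-type replicate 2, or likewise knockout replicate 1 or 2 (reaching 0.0912). The number that rose was 1 without knockout replicate 1 and 2 without wild-type replicate 2, knockout replicate 2 or knockout replicate 3, and 3 fell without wild-type replicate 1. Of all tested genes 457, 456, 361 and 545 rose and 1272 fell in these fits, in the same order. PCNA, the replication clamp, named after its values were seen, had 297 ± 21.3 and 304 ± 9.59 CPM (edgeR, adjusted p = 0.632).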

How the data were processed

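The authors deposited raw gene counts, as 1 table of whole numbers for each library. TopHat, limma, edgeR and the build hg38 are named, per the submitters' processing notes, without roles or versions. For the counting program, annotation, strand setting and multimapped reads, the choice is not given in the sources used here. Groups came from the sample titles, and each library was 1 replicate (chi-square per degree of freedom 3.17 to 9.78 within groups). Counts passing filterByExpr (minimum count 10, minimum total 15; 14409 genes) were scaled by TMM and fitted with group alone in edgeR 4.0.16 (R 4.3.3, quasi-likelihood, robust), p-values adjusted by Benjamini-Hochberg with a threshold of 0.05. The tests were tested on simulated data. Alternatives used DESeq2 1.42.0, limma 3.58.1 (voom), other scalings and filters, and splines (5 degrees of freedom) of transcript GC content or length, known for 95.9% of tested genes. Coordinates, transcript lengths and stem-loops are from GENCODE 29 (hg38) and promoters from RefSeq; all 77 members matched GENCODE. A variant gene and 1 marker gene are not reported here: both stayed in every fit, and counts and sums over variants or markers leave them out.

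The members and lists were chosen with earlier results of these data known. Named were all members that passed, all variants described, H2AX, the 3 highest of each clustered family and up to 4 changed genes of each other list, with GSK3B and the 4 highest of a list of other histone genes. Genes named otherwise are said to be so.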

Additional observations from a re-analysis of the deposited data

How the results depend on the processing

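Over 38 tested named genes and 18 alternatives, 601 of 682 values kept their direction and their side of the threshold, 49 lost the threshold, 13 gained it and 19 changed sign. H2AZ1 passed in every fit run. Depth limits the clustered genes, and their SEs cover the spread between 3 libraries. Unless stated, the cause of a change was not tested.

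Genes higher in the knockout numbered 917 of all tested, 1385 with the GC content correction and 1403 with that correction and the replicate block, and 361 to 1259 without 1 library. Lower were 1034, and 589 to 1272 without 1 library. Without 1 library fewer samples were fitted.

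Of clustered genes 1 was higher with the GC correction, and 1 with it and the replicate block (H2BC12). Of clustered genes 1 was lower (H2BC21) under these settings, with scaling by library size alone, with no filter and with the 1 CPM filter. Without 1 library, 0 passed. Of the variant genes described, 0 were lower in the reported fit and 1 was with library size scaling, the 1 CPM filter, the replicate block, the GC correction and both of these together, and 0 to 1 without 1 library. Those called higher were 1 to 2 without 1 library. Of all tested genes 1229 fell with library size scaling, 1215 with no filter and 1099 with the 1 CPM filter. With the replicate block 1113 fell. With the GC correction 1385 of all tested genes rose and 1364 fell, and with it and the block 1403 and 1352. Without 1 library 361 to 1259 of all tested genes rose and 589 to 1272 fell.

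Processing genes called higher were 1 with library size scaling, 9 with the GC correction, 10 with it and the replicate block, and 0 to 9 without 1 library. Lower were 2 with the GC correction, with or without the block, and 0 to 1 without 1 library. Chaperone genes called higher were 3 with library size scaling, 10 with the GC correction, 12 with it and the block, and 1 to 10 without 1 library. Lower were 1 with library size scaling, no filter and the replicate block, 2 with the GC correction with or without the block, and 0 to 3 without 1 library. S phase genes called higher were 1 to 6 without 1 library. Lower were 2 with library size scaling, no filter and the replicate block, and 1 to 3 without 1 library. The counts over all tested genes moved as well. With library size scaling 649 rose and 1229 fell, and with no filter 1065 and 1215. With the replicate block 1080 rose and 1113 fell. With the GC correction 1385 rose and 1364 fell, and with it and the block 1403 and 1352. Without 1 library 361 to 1259 rose and 589 to 1272 fell.

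The clustered log2 ratio of sums was -0.02 with the GC correction, with or without the replicate block, and the clustered minus variant difference was -0.12 in both. Signs changed for H3-3A, at -0.01 with the GC correction with or without the block. H1-2 was at 0.03 in both of these fits, and between -0.07 and 0.02 without 1 library. H2AX was at 8.4e-04 with limma-voom, 8.3e-04 with the replicate block, 0.10 with the GC correction with or without the block and 0.01 with the length correction, and between -0.05 and 0.07 without 1 library. Without 1 library H1-3 ranged from -0.13 to 0.71, H2BC5 from -0.17 to 0.11 and CENPA from -0.08 to 0.05.

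Whether same-numbered libraries were paired is not stated in the labels. Deviations of same-numbered libraries from their group means correlated at 0.0709, -0.00406 and 0.0306. The replicate block moved the named genes only for MACROH2A2, which passed (-0.18; edgeR, adjusted p = 0.0498), and for the sign of H2AX. With the block 1080 of all tested genes rose and 1113 fell, beside 917 and 1034 without it.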

Other observations

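Clustered genes tested on chromosome 1 all had fold changes below 0, 9 of 9, with a median of -0.22 and a range of -0.64 to -0.02, while those on chromosome 6 had 18 of 29 below 0 and a median of -0.08. The chromosome 1 genes include 3 pairs that share reads (H2AC18 and H2AC19, H3C14 and H3C15, H4C14 and H4C15), 0 of the 9 passed edgeR's test, and the difference between the chromosomes was seen in the data and not tested. At an unadjusted p under 0.05 there was 1 of the 9, lower, H2BC21, where 2028 of all 14409 tested genes were lower.

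A list of further histone genes that the naming rule does not take had 14 in the tables, of which 6 were listed at 0 and 2, CENPA and H3-5, were tested, neither passing edgeR (adjusted p = 0.963 and 0.327). CENPA, the centromeric H3, had 24.6 ± 1.11 CPM in wild-type cells and 24.5 ± 2.08 CPM in knockout libraries (SD, n = 3), and H3-5 had 0.263 ± 0.156 and 0.449 ± 0.096 CPM. H2BU1 and H4-16 were at 0.202 and 0.192 CPM in wild-type cells and 0.173 and 0.101 CPM in knockout libraries. H2AW and the pseudogene H3P6, which an older table names H3F3AP4, are not on that list and were picked after their values were seen. H2AW, which holds the stem-loop under its older symbol HIST3H2A, had 12.6 ± 0.395 and 12.4 ± 0.463 CPM (edgeR, adjusted p = 0.888). H3P6 had 102, 111 and 105 CPM in wild-type cells and 110, 124 and 114 CPM in knockout libraries (edgeR, adjusted p = 0.0711, or 0.0117 with the GC correction). Whether its counts include reads of the H3.3 genes was not tested.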
